A study of Homo sapiens with 14 samples.

Results

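The sites described here are the KLF4 peaks of arsenic-treated wild-type (WT) BEAS-2B cells that carry an AP-1 word under the summit. Each peak of the WT As3+ list on the autosomes and X was read in GRCh38 over 200 bp centred on its summit. A peak was a member when this window held TGACTCA or its reverse complement TGAGTCA. The rule used sequence alone and no measured signal beyond the place of the summit. There were 1292 members among 29866 sites, and the 4 KLF4 lists together held 107268 sites. The members are called AP-1 sites below for the word they hold, since no AP-1 subunit was measured.

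BEAS-2B is an established line of human bronchial epithelial cells. KLF4 ChIP-seq was performed in WT and Nrf2 KO cells, each left untreated (control) or given 1 µM As3+ for 6 h, with 1 library per condition. The KO cells came from CRISPR-Cas9 editing at exon 2 of the Nrf2 gene, and the study's methods call colonies without Nrf2 protein KO and colonies that kept it WT, with no statement of how many colonies stand behind a library. No difference between conditions has a replicate check, so no p-value is given and intervals cover counting error only.

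AP-1 is a dimer of FOS, JUN and ATF family proteins that binds the TPA response element, the 7-base word searched for here, and it is a frequent occupant of enhancers in epithelial cells. KLF4 is a zinc finger factor of epithelial differentiation and stemness that reads CACCC-type words. Nrf2 pairs with small MAF proteins on the antioxidant response element (ARE), whose core TGACNNNGC can contain the AP-1 word whole, as in TGACTCAGC.

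The sequence under the 10 strongest AP-1 sites, ranked by the authors' −log10 p, is shown first, because these are the sites with the clearest signal. Each line gives the gene with the nearest protein-coding TSS, the position in GRCh38, the strand and the word with 10 bases on either side. Capitals mark the AP-1 word, or the 9 bases of the ARE form where the word extends to it.
KRT80 side, chr12:52147486-52147512, minus: cacacccgggTGACTCAgggctgcagc
LAMA5 intron, chr20:62359636-62359662, minus: tggtcactggTGACTCAgggggcagtt
AXL intron, chr19:41226182-41226208, plus: gtgcccccggTGACTCAcgcgggggca
NANOS3 side, chr19:13851325-13851351, minus: ccgccctgtgTGACTCAagcctcattg
DYNC2I2 intron, chr9:128635508-128635534, plus: ctgaggggggTGACTCAtgctgcggga
TAGLN2, chr1:159924628-159924654, minus: gggcggtgggTGACTCAtctgttgtaa
TOP3B side, chr22:22074933-22074959, plus: tcactgagccTGACTCAGCagctctgt
S100A2, chr1:153566684-153566710, plus: cagccctaagTGACTCAcccgaggttc
PLEKHG6 side, chr12:6278809-6278835, plus: cacggagggcTGACTCAtcctggcgcc
EDN2 side, chr1:41496378-41496404, minus: tcctgcgcgcTGACTCAtggccggcac

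A second set shows AP-1 words that read on into the ARE core, at genes of receptors and of the antioxidant response. EPHA2 and GPR39 encode cell surface receptors, FTL the light chain of ferritin, GCLC the catalytic subunit of glutathione synthesis and ABCC1 an exporter of glutathione conjugates. Capitals mark the ARE form.
EPHA2 side, chr1:16173647-16173673, plus: cccagcctgcTGACTCAGCgcctgggg
GPR39 TSS, chr2:132416499-132416525, minus: cggcggggttTGACTCAGCacataggc
FTL side, chr19:48963932-48963958, plus: gagctcagcaTGACTCAGCagtcgctg
ABCC1 intron, chr16:16022200-16022226, minus: gccgactcagTGACTCAGCacgaagtg
GCLC extent, chr6:53548239-53548265, plus: cgcctccccgTGACTCAGCgctttgtg

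The third set shows sites at genes of cell adhesion, growth factor signalling and AP-1 itself. ITGB4 is the integrin beta chain of hemidesmosomes, VIM the intermediate filament of mesenchymal cells, EGFR the epidermal growth factor receptor and FOSL1 the AP-1 subunit FRA-1. Capitals mark the AP-1 word.
ITGB4 TSS, chr17:75721381-75721407, plus: gcagccggtcTGACTCAccagcgcctc
VIM TSS, chr10:17228516-17228542, minus: tcaccggcggTGACTCAccgcgccctg
EGFR intron, chr7:55133064-55133090, minus: ttcaggcccgTGACTCActccttgatg
FOSL1 TSS, chr11:65900373-65900399, plus: tgctgggttcTGACTCAcccgcgccgt

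The strongest AP-1 site was the 5th strongest KLF4 peak of the WT As3+ list. It lay at chr12:52147033-52148039 in intergenic sequence, 16645 bp upstream of LINC00592 and 44544 bp from the TSS of KRT80, which encodes an epithelial keratin. The summit was covered by 90 fragments over a background of 2.12, a fold enrichment of 29.2. The same place held a peak in every other list, at rank 7 of 751 for the WT control, 46 of 76521 for the Nrf2 KO control and 50 of 130 for the Nrf2 KO As3+ list. Its window held 2 AP-1 words and 1 KLF word.

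The site in LAMA5 ranked 7 and the site in AXL ranked 12. LAMA5 encodes the laminin alpha 5 chain of epithelial basement membranes, and its intronic peak at chr20:62358937-62360030 had 87 fragments and a fold enrichment of 28.2. The peak was also listed in the WT control at rank 19 and in the Nrf2 KO control at rank 69, and not in the Nrf2 KO As3+ list. AXL is a receptor tyrosine kinase, and the peak in its intron at chr19:41225674-41226728 had 66 fragments and a fold enrichment of 22.9. That site was listed at rank 131 in the WT control and at rank 516 in the Nrf2 KO control. A gap of 91 bp separated the LAMA5 word from the summit, whereas the AXL word lay 26 bp away.

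Among the other strong sites, S100A2 and TAGLN2 carried the word close to their own TSS. S100A2 encodes a calcium-binding protein of epithelial cells, and its peak, 1260 bp downstream of the TSS, reached a fold enrichment of 18.6 and rank 24. It stood in the other 3 lists too, at rank 43 for the WT control, 29 for the Nrf2 KO control and 67 for the Nrf2 KO As3+ list. TAGLN2, the actin-binding transgelin 2, had rank 22 and a fold enrichment of 19.3 at 902 bp downstream of the TSS. Its rank was 63 for the WT control and 28 for the Nrf2 KO control. The site on the NANOS3 side, 8404 bp upstream of the miRNA host gene MIR23AHG, had a peak in all 4 lists and rank 13 in the WT As3+ list. In DYNC2I2, which encodes an intermediate chain of dynein 2, the intronic peak ranked 19 in the WT As3+ list and 26 in the Nrf2 KO control.

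The remaining 3 of the 10 strongest sites were missing from the WT control or from the Nrf2 KO control. The site at chr22:22074589-22075490 lay 422 bp upstream of IGLVIV-64, so it counts as near a TSS, and 92131 bp from the TSS of the topoisomerase gene TOP3B. This site had 56 fragments, a fold enrichment of 19.5 and rank 23. It was listed in the WT control at rank 652, and it was the single site of the 10 with no peak in the Nrf2 KO control. The PLEKHG6 site ranked 36 and the EDN2 site 37, and neither had a WT control peak. EDN2 encodes endothelin 2, and its site 11786 bp upstream of the TSS had 50 fragments in WT As3+ cells and 24 in the Nrf2 KO control at rank 142.

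**Figure D1:**
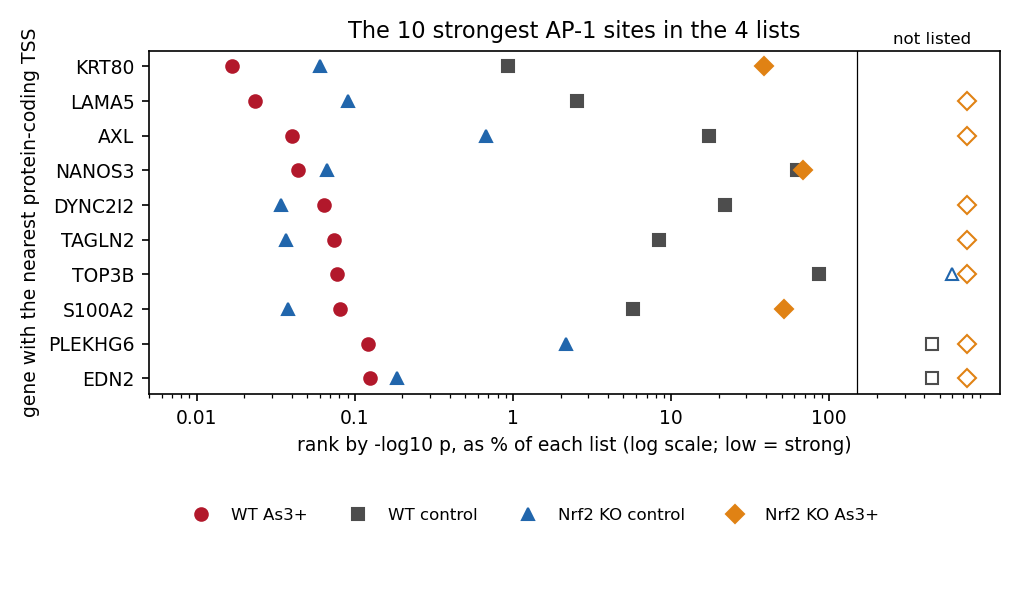
Rank of the 10 strongest AP-1 sites of the WT As3+ list in each of the 4 lists, as a percentage of the number of peaks in that list on a log axis, with open symbols for sites that are not listed. In the Nrf2 KO control 9 of the 10 were listed, in the WT control 8 and in the Nrf2 KO As3+ list 3. All WT As3+ sites overlapped these lists at 55.6%, 2.15% and 0.248%, in the same order. Sites without the word in the upper 10% of the list did so at 90.4%, 12.6% and 1.75%.

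These ranks describe each list on its own scale, since the lists differ widely in length. The WT control list held 751 sites, the WT As3+ list 29866, the Nrf2 KO control list 76521 and the Nrf2 KO As3+ list 130 on the chromosomes used. Summits were covered by a median of 25, 10, 7 and 19 fragments in the same order, over a lowest background of 1.90, 0.757, 0.491 and 1.64 fragments. A missing peak may lie below the threshold of its list, and the part that depth or the call threshold played in list length was not tested.

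The word was present in 4.33% of the WT As3+ windows (95% interval 4.10 to 4.56). Of all 14555311 genomic tiles of the same length 2.99% held it, and of 35116 RefSeq promoters, read over 200 bp before the start, 3.54%. Tiles with the GC content of the KLF4 windows held it at 2.13%, so the share in the WT As3+ list was 2.03 times as high (1.92 to 2.14). Most members held a single word, 1205 of them, while 82 held 2, 4 held 3 and 1 held 4, which gave 1385 words. The share of sites with the word ranged from 2.15% on chromosome 18 to 5.26% on chromosome 17, so the members were spread over the genome.

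The AP-1 sites lay away from promoters more often than the other sites. More than 2000 bp from any TSS were 938 of the 1292 members, or 72.6% (70.1 to 75.0), against 48.6% of the 28574 sites without the word, a difference of 24.0 percentage points (21.5 to 26.5). The median distance to the nearest TSS was 7036 bp for the members and 1762 bp for the others. With the other sites weighted to the members' GC content and rank, the difference was 15.7 points (13.1 to 18.2). Of the members 550, or 42.6%, lay more than 10000 bp from any TSS, against 7723 of the 28574 others.

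Introns held the largest share of the distant members. Of all members, 526 or 40.7% lay in an intron beyond 2000 bp against 24.1% of all other sites, and 375 or 29.0% lay between genes against 20.1%. These shares also carry the larger distant share of the members. Between genes lay 375 of the 938 distant members and 5753 of the 13880 distant other sites, and in introns 526 and 6895. Exons beyond 2000 bp held 37 members, 2.86% against 4.31% of the other sites. The nearest TSS belonged to a long non-coding RNA gene for 34.7% of the members and for 27.2% of the others. AP-1 windows were less rich in GC, with a median of 61% against 64.5%, and held a median of 5 CpG dinucleotides against 11.

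**Figure D2:**
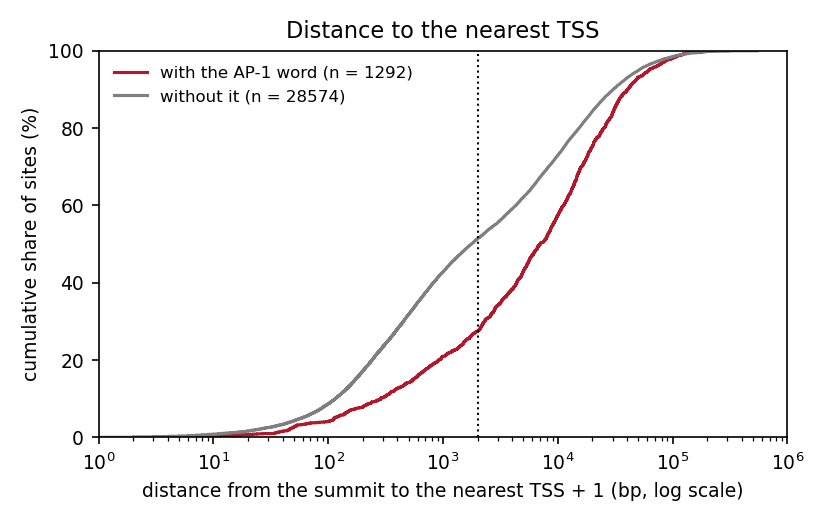
Cumulative share of WT As3+ sites by the distance from the summit to the nearest TSS (bp, plus 1, log axis), for the 1292 sites with the AP-1 word and the 28574 without it; the dotted line marks 2000 bp. The curve of the AP-1 sites runs to the right of the other, with medians of 7036 bp and 1762 bp.

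The members were also concentrated among the strong peaks. In the upper 10% of the list by −log10 p were 242 members, 18.7% (16.6 to 21.0), against 9.61% of the other sites, a difference of 9.12 points (7.06 to 11.4). With the other sites weighted to the members' GC content and TSS class it was 12.3 points (10.2 to 14.4). Members had a median of 12 fragments over the summit and the others 10. The share with the word was 28 of the 100 strongest sites (28%, 19.5 to 37.9), 113 of the strongest 1000 (11.3%) and 64 of the strongest 500 (12.8%).

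The share of AP-1 sites varied with rank and place together. Beyond 2000 bp from a TSS the word was found in 16.0% (13.8 to 18.3) of the sites in the strongest 10% of the list, which was 8.18 times the share in tiles of like GC, and in 4.40% of the weakest 10%, which was 1.56 times. Within 2000 bp of a TSS it was found in 3.98% (3.16 to 4.94) of the strongest 10%, 3.26 times the tile share, and in 1.86% of the weakest 10%, 0.842 times. The RefSeq promoters, which were not matched for GC, held it at 3.54%, inside the interval of that strongest 10%. All WT As3+ sites within 2000 bp of a TSS held it at 2.35%. In the lower 5 of the 10 rank classes near a TSS the ratio to the tile share lay between 0.842 and 1.06, and in the classes between these and the strongest it lay between 1.19 and 1.61. The strong distant sites held the word most often.

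**Figure D3:**
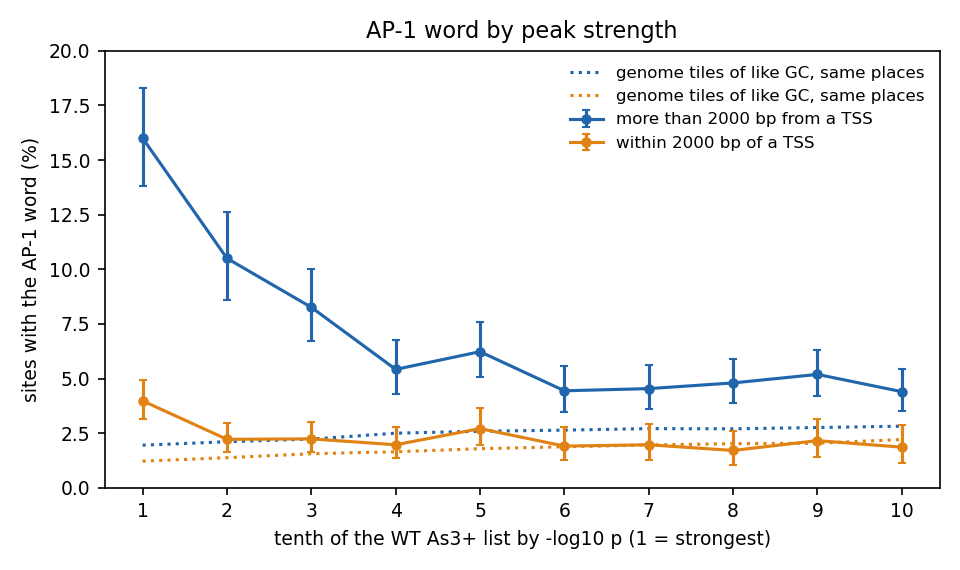
Share of WT As3+ sites with the AP-1 word (%) in each of 10 equal rank classes of the list by −log10 p, apart for sites more than 2000 bp from a TSS (blue) and within 2000 bp (orange), with exact 95% intervals; dotted lines give genomic tiles of like GC content. The distant sites fall from 16.0% to 4.40% and the near sites from 3.98% to 1.86%.

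The word was dense around the summit and thinned out on either side. In the strongest 10% beyond 2000 bp there were 0.924 words per kb within 50 bp of the summit and 0.241 between 250 and 500 bp, a ratio of 3.83 (2.90 to 5.04), against 0.157 words per kb in the whole genome. The ratio was 2.07 (1.40 to 3.01) in the strongest 10% near a TSS and 1.59 (1.42 to 1.78) in the weaker distant sites. Weaker sites near a TSS had fewer words at the summit than at its flanks, with a ratio of 0.752 (0.612 to 0.918).

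Inside the 200-bp window, however, the words did not gather on the summit base. Within 25 bp of the summit lay 332 of the 1385 words, 24.0% (21.7 to 26.3), where even placement would give 26.3%. The median distance from word to summit was 52 bp. Among the 270 words of the strongest 10% of sites, 20.7% (16.1 to 26.1) lay within 25 bp. The strong distant sites thus had a broad rise in word density on either side of the summit and no sharp peak on it.

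**Figure D4:**
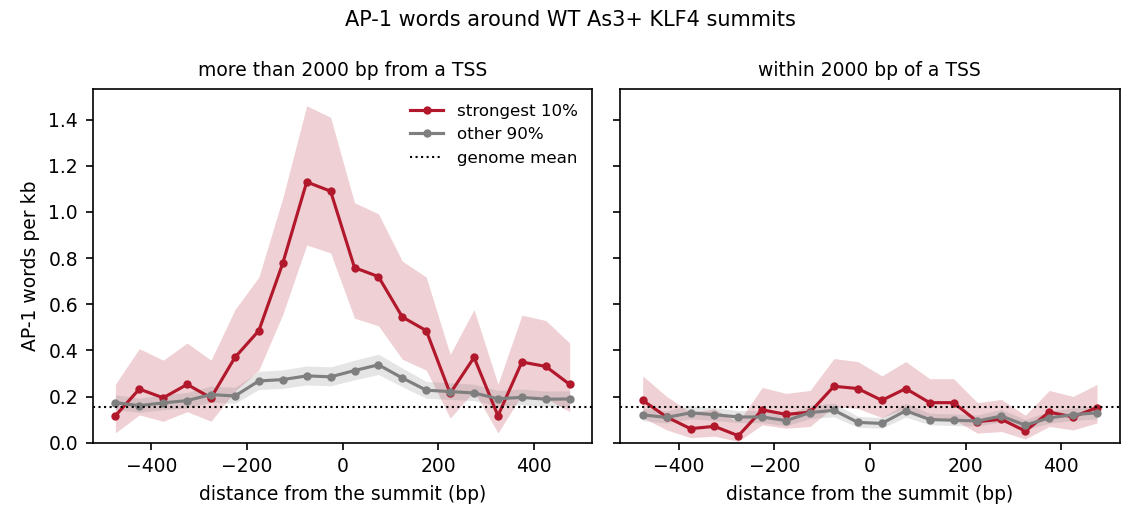
AP-1 words per kb by distance from the KLF4 summit (bp, bins of 50 bp) for WT As3+ sites beyond 2000 bp from a TSS (left) and within 2000 bp (right), in the strongest 10% and the other 90% of the list; bands are exact 95% intervals and the dotted line is the genome mean of 0.157. The rise is highest in the strong distant sites, with 0.924 words per kb within 50 bp.

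The lists were then compared to see which AP-1 sites also had a KLF4 peak in the other libraries. With the WT control list 111 members overlapped by at least 1 bp, 8.59% (7.12 to 10.3), and all WT As3+ sites did so at 2.15%. The other sites overlapped at 1.85%, a difference of 6.74 points (5.32 to 8.40). With the other sites weighted to the members' GC content, place and rank, the difference was 2.56 points (0.955 to 4.17). Among the strong distant sites 66 of 164 members (40.2%, 32.7 to 48.2) had a WT control peak against 26.2% of the others, and among the weaker distant sites 3.49% against 1.04%. Rank was matched only by class here, so strength within a class was not matched. Of the 28 members among the 100 strongest sites, 25 had a WT control peak.

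Read the other way, the word was most frequent in WT As3+ sites that already had a peak in untreated WT cells. It was held by 46 of the 236 sites shared with the WT control alone (19.5%, 14.6 to 25.1) and by 57 of the 350 shared with the WT control and the Nrf2 KO control (16.3%, 12.6 to 20.6). These shares were 6.08 and 8.18 times those of tiles of like GC. In sites with no peak in any other list the word was held by 654 of 13020 (5.02%, 4.65 to 5.41), 1.87 times the tile share, and in sites shared with the Nrf2 KO control alone by 527 of 16186 (3.26%, 2.99 to 3.54), 1.96 times. The last ratios had intervals that overlap, 1.73 to 2.01 and 1.79 to 2.13. In the whole WT control list 137 of 751 sites held the word, 6.75 times the tile share. Of that list 111 peaks, 14.8%, overlapped a member. The Nrf2 KO As3+ list held the word at 15 of 130 sites (11.5%, 6.60 to 18.3), 4.09 times the tile share. In the Nrf2 KO control list the share was 2.54%, 1.04 times.

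With the Nrf2 KO control list 591 members overlapped, 45.7% (43.0 to 48.5), and all WT As3+ sites at 55.6%. The overlapping peaks made up 0.855% of that long list. The other sites overlapped at 56.0%, so the members were lower by 10.3 points, the difference being −10.3 (−13.0 to −7.49). The gap differed between places. Beyond 2000 bp from a TSS 38.4% of the members and 36.0% of the others overlapped, a difference of 2.41 points (−0.748 to 5.67), while within 2000 bp 65.3% and 75.0% did, a difference of −9.70 (−14.8 to −4.88). Weighted to the members' GC content, place and rank, the other sites overlapped at 46.5%, and the difference was −0.692 (−3.50 to 2.11). The weighting changed GC content, place and rank together, so their separate parts were not tested. Within rank classes the gap was −12.7 points in the upper 10% of the list and −14.0 below it.

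The Nrf2 KO As3+ list, with 130 sites, shared 8 with the members, 0.619% (0.268 to 1.22), against 0.248% for all WT As3+ sites and 0.231% for the others. The difference was 0.388 points (0.0767 to 0.988), and −0.00744 (−0.482 to 0.467) after weighting. All 8 but 1 of these members lay more than 2000 bp from a TSS. A peak in all 3 other lists was found for 7 members, 0.542%, where all WT As3+ sites had 0.151%. Besides the KRT80, NANOS3 and S100A2 sites these included an intronic site of EHD1 on the CDC42BPG side, with rank 70 in the WT As3+ list, 38 in the WT control and 18 in the Nrf2 KO As3+ list. An intronic site at chr20:44693022-44693441 on the side of CCN5, a matricellular protein gene, had rank 64 in the WT As3+ list, 8 in the WT control and 7 in the Nrf2 KO As3+ list.

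No peak in any other list was found for 654 members, 50.6% (47.9 to 53.4), against 43.6% of all WT As3+ sites and 43.3% of the others. After weighting, the difference was −0.398 (−3.21 to 2.42). The direction differed between places. Beyond 2000 bp from a TSS, where most members lay, 57.4% of the members and 62.8% of the others had no other peak, a difference of −5.46 (−8.75 to −2.23), while within 2000 bp 32.8% and 24.8% did, a difference of 7.95 (3.21 to 13.0). In the upper 10% of the list 30 members had no other peak, 12.4% (8.52 to 17.2) against 6.85%, and among lower ranks 59.4% against 47.1%. Where a member was shared, its summits lay a median of 47 bp apart in the WT control, 120 bp in the Nrf2 KO control and 28.5 bp in the Nrf2 KO As3+ list. The shared members had a median of 24 fragments in WT As3+ cells and 27 in the WT control, and 14 and 11 for the Nrf2 KO control. For the other shared sites the median summit gaps were 59, 136 and 47 bp. Their fragment medians were 23 and 26 for the WT control, and 12 and 11 for the Nrf2 KO control. Fragment counts were not scaled between libraries, so they do not compare signal strength between conditions.

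**Figure D5:**
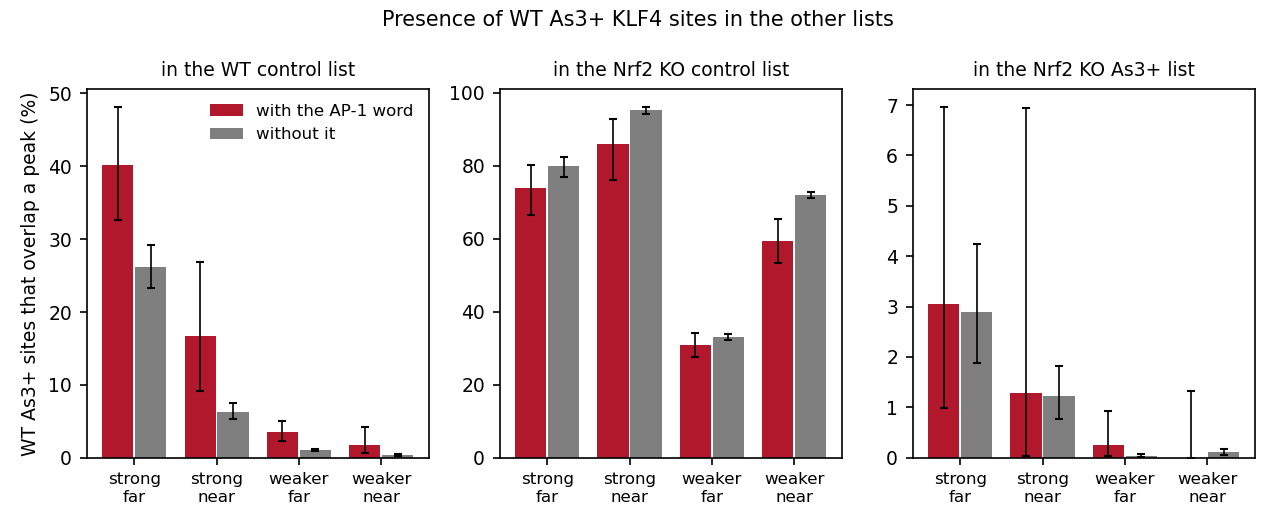
Share of WT As3+ sites that overlap a peak of each other list (%), for sites with the AP-1 word (red) and without it (grey), split by rank (strong, the upper 10%; weaker, the rest) and place (far, more than 2000 bp from a TSS; near, within 2000 bp), with exact 95% intervals and a separate axis per list. In the WT control panel the AP-1 sites are higher in all 4 classes, with 40.2% against 26.2% for the strong far sites.

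The ARE form was present in 233 members. Of the 1385 words 239 read on into the ARE core, 17.3% (15.3 to 19.4), against 7.22% of the 458327 AP-1 words of the genome. Much of that gap went with GC content, because words in genomic windows of like GC had the ARE form at 15.3%, which left a ratio of 1.13 (1.00 to 1.27). Near a TSS 21.6% of the words had the form, 1.26 times the share at like GC (1.02 to 1.52), and beyond 2000 bp 15.6%, 1.07 times (0.921 to 1.23). With a further A after the core the form was found at 5.56% of the words, 1.38 times the share at like GC (1.10 to 1.72). The flanks that AP-1 itself prefers, A or G before the word and C or T after it, were found at 28.7% of the words, 1.33 times the share at like GC (1.22 to 1.44).

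Members with the ARE form overlapped the Nrf2 KO control list more often than the other members. The overlap was 127 of 233 (54.5%, 47.9 to 61.0) against 464 of 1059 (43.8%, 40.8 to 46.9), a difference of 10.7 points (3.61 to 17.6). Fewer ARE-form members lay beyond 2000 bp from a TSS, 66.1% against 74.0%. With the other members weighted by TSS class and rank, an alternative chosen after seeing the data, the difference was 6.20 points (−0.816 to 13.2). The overlap with the WT control was 11.6% against 7.93%, a difference of 3.66 points with an interval that includes 0 (−0.273 to 8.63).

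The strongest ARE-form sites showed the range of these patterns. The strongest, on the TOP3B side, was the one without a Nrf2 KO control peak. The EPHA2 site lay 17665 bp upstream of the TSS with 48 fragments, a fold enrichment of 14.0 and rank 69, and had rank 259 in the WT control and 107 in the Nrf2 KO control. The GPR39 site lay 327 bp upstream of the TSS with 44 fragments and rank 71, and was listed in both controls. In ARID3A, which encodes a DNA-binding protein, an intronic site had rank 74, and near MIR5700 a site had rank 90 and was listed at rank 50 of 751 in the WT control and at rank 26806 of 76521 in the Nrf2 KO control.

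Other words in the windows were compared in the same way. The KLF word, which is CCAC followed by A or G and then CCC, stood in 195 members (15.1%, 13.2 to 17.2) and in 10.1% of the other sites, a difference of 4.99 points (3.11 to 7.07). After weighting to the members' GC content, place and rank the difference was 2.01 (−0.0372 to 4.06). In windows with both words the closest pair lay a median of 49.5 bp apart, and 41 of 195 lay within 25 bp. CACCC, which the KLF word can contain and which is the shorter word of this family, stood in 71.4% of the members and in 62.0% of the others, and the weighted difference was 8.02 points (5.44 to 10.6). In the strongest 10% of sites the KLF word stood in 23.1% (18.0 to 29.0) of the members and in 15.9% of the others.

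Words of other factors were compared with and without weighting for GC content, place and rank. The TEAD word GGAATG stood in 14.0% of the members and 9.18% of the others, and the RUNX word TGTGGT in 15.7% and 9.92%. Their weighted differences were 1.46 (−0.536 to 3.45) and 1.86 points (−0.224 to 3.94), and both intervals include 0. The GC box CCCGCCC was rarer in the members, at 14.6% against 23.6%, with a weighted difference of −1.79 (−3.80 to 0.212). The ETS word CCGGAAG stood in 2.71% and 4.32%, with a weighted difference of −0.420 (−1.34 to 0.501). The CG run CGCGCG stood in 4.41% of the members and 11.2% of the others, and its weighted difference of −1.76 (−2.93 to −0.597) stayed below 0. Each word was sought on both strands. None of those given here contains the AP-1 word, parts of them may overlap it, and a match describes the letters and not a bound factor.

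Genes were attached to members by the nearest protein-coding TSS, which gave 1118 genes or 5.60% of the 19962 protein-coding genes on these chromosomes. Most had a single member, 972 genes, while 125 had 2, 16 had 3, 4 had 4 and 1 had 6. The gene with 6 was CEBPB, a transcription factor of stress and inflammatory responses, with 21 sites in all. CXXC5, CYP26B1, NANOS3 and ZNF706 had 4 each, and 3 each were found at PDGFB, the platelet-derived growth factor B chain, SOCS3, an inhibitor of cytokine signalling, and GADD45B, a stress-induced gene. Genes with many KLF4 sites have more chances of a member. The share of a list's sites that were members is therefore given beside the count of genes, against 4.33% of all sites. The median distance to the nearest protein-coding TSS was 19138 bp for the members and 5150 bp for the other sites. A member counted at a gene can thus lie far from it or inside another gene.

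The AP-1 subunit genes had a member at 5 of 12 genes, with 5 members among 68 sites (7.35%, 2.43 to 16.3). They were ATF3, FOSB, FOSL1, JUND and JUN. The ATF3 site ranked 609 with 28 fragments and a fold enrichment of 8.86, and lay 6346 bp upstream of its TSS. FOSL1 had its site 114 bp downstream of the TSS, covered by 16 fragments at a fold enrichment of 7.12 and rank 3140, and was listed in the Nrf2 KO control at rank 2440. The FOSB site, 11846 bp upstream of the TSS within the extent of ERCC1, had 22 fragments, and the JUN site, 64999 bp upstream, had 13. Neither of these last sites was listed elsewhere. None of the 5 had a peak in the WT control or Nrf2 KO As3+ list, where all WT As3+ sites overlapped at 2.15% and 0.248%, so few overlaps can be found among 5 sites.

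The CNC and small MAF list, which holds the partners and competitors of Nrf2, had a member at 2 of 9 genes, with 2 members among 21 sites (9.52%, 1.17 to 30.4). MAFK, a small MAF protein, had an intronic site with 15 fragments and rank 5576, and BACH1, a repressor that shares the ARE with Nrf2, had an ARE-form site 31034 bp upstream with 14 fragments and rank 13638. The antioxidant targets of Nrf2 had one at 4 of 21 genes, with 5 members among 40 sites (12.5%, 4.19 to 26.8). ABCC1 had 19 fragments and rank 4248, FTL 18 fragments and rank 6014, SRXN1, which encodes sulfiredoxin, 11 fragments and rank 17107, and GCLC 13 fragments and rank 19788. Those at ABCC1, FTL and GCLC had the ARE form. All 4 of these sites were also listed in the Nrf2 KO control, at ranks from 9641 to 44966. Of all WT As3+ sites 55.6% overlapped that list, so 4 sites say little about this gene list. The ABCC1 site lay 73066 bp and the GCLC site 68706 bp from the TSS of the gene.

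Basement membrane and integrin genes had a member at 7 of 17 genes, with 8 members among 56 sites (14.3%, 6.38 to 26.2). Besides LAMA5 these were ITGA3, ITGA6, ITGB1, ITGB4, ITGB6 and COL4A2. The ITGB4 summit lay 7 bp from the TSS with 24 fragments, a fold enrichment of 9.15 and rank 825, and was listed in the Nrf2 KO control at rank 2035. ITGA3, an integrin alpha chain that binds laminin, had an intronic site with 24 fragments and rank 1117. The ITGB6 site, 7988 bp upstream of the TSS, had 18 fragments and was listed in the WT control at rank 106 and not in the Nrf2 KO control. ITGB1, the common beta 1 chain, had its site 43 bp from the TSS with 16 fragments in the WT As3+ list alone.

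The YAP and TEAD list, a pathway of cell contact and stiffness, had a member at 4 of 12 genes, with 6 members among 35 sites (17.1%, 6.56 to 33.6). AXL led it, and CCN2, AMOTL2 and TEAD4 had sites of 8 to 11 fragments. The EGF list had a member at 2 of 12 genes, with 2 members among 13 sites (15.4%, 1.92 to 45.4). EGFR had an intronic site 113965 bp downstream of the TSS with 14 fragments and rank 5050, listed in the WT control at rank 430 and not in the Nrf2 KO control. HBEGF, a ligand of EGFR, had a site with 8 fragments and rank 27939, listed nowhere else. The EMT list had a member at 3 of 11 genes, with 4 members among 41 sites (9.76%, 2.72 to 23.1). VIM led it with 47 fragments, a fold enrichment of 12.3 and rank 95, listed in both controls. The site at SPARC, a matricellular protein, had 14 fragments.

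In the remaining lists 2.94% to 7.84% of the sites were members. Textbook AP-1 targets had a member at 1 of 16 genes, with 1 member among 34 sites (2.94%, 0.0744 to 15.3). It was at MMP9, a matrix protease, where the site 15157 bp upstream had 10 fragments and rank 26200. The KLF family had 4 of 18 genes and 4 members among 88 sites (4.55%, 1.25 to 11.2), and cytosolic ribosomal proteins 6 of 77 genes and 8 members among 102 sites (7.84%, 3.45 to 14.9). A mixed list of 11 genes was in part named by the study, and not all of them for KLF4. It had a member at 3, PDGFB, MYC and PDCD1, with 5 members among 68 sites (7.35%, 2.43 to 16.3). The strongest member at each lay 39400 bp from the TSS of PDGFB, 118847 bp from that of MYC and 8616 bp from that of PDCD1. Apart from the basement membrane and integrin list and the YAP and TEAD list, the interval of each list's share of sites included 4.33%. These intervals count several sites at 1 gene as separate and make no allowance for the number of lists. The lists were also chosen with earlier results of these data known, so the intervals are no test of any list.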

How the data were processed

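The authors aligned the reads with BWA at default settings to GRCh38/hg38, and bcl2fastq 2.17 is named per the labels. The peak caller is not given in the sources used here. The authors deposited 1 list of peaks per library, with a fold enrichment (a ratio to the local background), −log10 p and −log10 q at each summit and a score that is the −log10 q times 10 without decimals. Weaker peaks than a −log10 q of 1.00 to 1.03 are not listed. Fragments over a summit (n) and background (λ) were worked out from fold = (n + 1)/(λ + 1) and p as an upper Poisson tail, with a largest misfit in −log10 p of 0.000405. Read totals were not used here, so fragment counts were not scaled between libraries. The histone mark and input samples were not analysed here.

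Peaks on chromosomes 1 to 22 and X were used, and 9, 90, 247 and 10 peaks of the WT control, WT As3+, Nrf2 KO control and Nrf2 KO As3+ lists on other sequences were left out. Distances were taken to gene 5′ ends of GENCODE 44, and place follows the canonical transcripts, so a site in a gene's extent can count as intergenic. Words were counted in windows of 200 bp and in all genomic tiles of that length, weighted to the windows' GC in steps of 5 points. Shares carry exact Clopper-Pearson intervals and unweighted differences Newcombe intervals at 95%. Weighted differences carry normal 95% intervals, with the variance of the other sites summed over the weighting classes. All of these cover counting error only. For weighted differences the other sites were given the members' makeup by GC, TSS class and rank class, leaving out the variable under study. The 1 member without a like site was dropped there. No test between conditions was made, because each condition has 1 library.

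The sites named are the 10 members with the largest −log10 p, the 5 with the largest within 2000 bp of a TSS, beyond 10000 bp, with the ARE form and in all 3 other lists, and for each gene list the strongest member of up to 5 genes. Genes with several members were named after their values were seen, as were ITGA6 and COL4A2, named to complete a count. The members and lists were chosen with earlier results of these data known. Some named sites are given without sequence or left out. Sequences come from the GRCh38 genome, and the promoters of the background from RefSeq (GRCh38.p14). The steps were first tested on simulated data. The alternatives were a −log10 q of at least 5, a window of 100 bp, the word with any central base, other definitions of overlap, place, rank and core, and the weighting above. Python 3.11.15 was used with numpy 2.4.6, pandas 2.3.3, scipy 1.17.1 and matplotlib 3.10.9.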

Additional observations from a re-analysis of the deposited data

How the results depend on the processing

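Of 44 alternatives over 9 results, 35 kept the direction and the side of 0 on which the interval lay. The excess of the word, the distance from promoters, the higher rank and the WT control overlap of the AP-1 sites held under each alternative run for them. After weighting to the members' makeup, the difference in Nrf2 KO control overlap was −0.692 points and that in KLF words 2.01, both with intervals that include 0, and the Nrf2 KO As3+ difference turned to −0.00744. With sites under a −log10 q of 5 left out, the Nrf2 KO As3+ difference was 0.530 and the ARE-form difference in Nrf2 KO control overlap 4.79, and these intervals include 0 too. The ARE-form difference was 7.83 with a 100-bp window (−2.13 to 17.8). With the other members weighted by TSS class and rank, an alternative chosen after seeing the data, it was 6.20 (−0.816 to 13.2). Both of these intervals include 0. The shortfall of words close to the summit against even placement was −3.54 points within 50 bp and −2.15 for the word with any central base, with intervals below 0. A stricter threshold or window also leaves fewer sites, and the cause of these changes was not tested. No paired analysis was possible because each condition has 1 library and no result comes from a test over samples. With a median of 12 fragments over a member's summit and 10 over the others', absence from a list can mean a signal under that list's threshold.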
